A study of Bos taurus with 4 samples.

Results

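In muscle of Angus steers, 10 mitochondrial protein-coding genes had lower transcript levels on a grass diet than on grain, out of 24616 genes in the deposited RNA-Seq table. They were chosen by their Ensembl identifiers, from the 13 mitochondrial genes that the study clustered by diet, because the lower grain-fed library exceeded the higher grass-fed one and the grain-fed libraries lay close to each other. The values by diet therefore chose the genes, and they are given below as a description without a test. The 3 other mitochondrial genes, whose grain-fed libraries lay far apart, serve only for comparison.

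The animals were Aberdeen Angus steers of the closed Wye herd, all raised on a common diet up to weaning and then assigned at random to a regimen that lasted until slaughter. Grass-fed steers ate grazed alfalfa, clover and orchard grass with conserved forage in winter and received no grain, and grain-fed steers ate corn silage, shelled corn, soybean and trace minerals. RNA-Seq was run on longissimus dorsi, the long muscle of the back, from 2 steers of each diet. The methods state that grass-fed animals took longer to reach market weight and that the grass-fed animals profiled for metabolites were older. The sources used here give no ages for these 4 steers. The paper also describes the grain-fed animals as confined and the grass-fed animals as free to move and exercise. Diet, age, season of slaughter, housing and movement therefore cannot be told apart. The deposited columns name the diet and a library number but not the steer. The labels describe total RNA, whereas the methods describe selection of mRNA on oligo(dT) beads.

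Mitochondria carry their own small circular genome, present in many copies per cell, which encodes core subunits of the respiratory chain and of the ATP synthase. In the RefSeq annotation of cattle it holds 13 protein-coding genes, 2 rRNA genes and 22 tRNA genes. Of the proteins, 7 are ND subunits of complex I (NADH dehydrogenase), which passes electrons from NADH to ubiquinone, and 1 is CYTB of complex III, which hands them to cytochrome c. The 3 COX subunits belong to complex IV, which reduces oxygen to water, and the 2 ATP subunits to the ATP synthase, which uses the proton gradient to make ATP. All other subunits are made from nuclear genes and imported. Both strands of the genome are read as long transcripts that are cut at the tRNAs into the mature RNAs, which then differ in their stability. Striated muscle relies on this machinery for sustained work and is rich in these transcripts.

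None of the sources used here pairs the Ensembl identifiers of these 10 genes with gene names, so the 10 genes are given by identifier and their complexes are not assigned. The annotation has overlapping neighbours, namely ATP8 with ATP6, ATP6 with COX3, ND4L with ND4 and ND5 with ND6, and reads in an overlap cannot be split between the genes. The methods name no step that marks the strand, and how reads matching nuclear copies of mitochondrial DNA were treated is not given in the sources used here. Gene lengths are not paired with the identifiers either, so values of different genes are compared as reads and not as transcript levels.

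The libraries held 5683894 to 7447453 reads on genes, and the grass-fed pair had more of them than the grain-fed pair. The study reported similar numbers of aligned reads for both diets, so a smaller part of them fell on genes on grain. Shares below are of the reads on genes and not of aligned reads, and the part of this difference in the results was not tested. At least 1 read fell on 11625 and 11201 genes in the grain-fed pair and on 14485 and 13487 genes in the grass-fed pair, so this number moved with diet, and its part in the results was not tested. Of 10461 genes whose mean reached 1 per 1000000 of the mean column total, 0 passed an adjusted p-value under 0.1 in limma (percent called 0), against 918 at an unadjusted p-value under 0.05. The same threshold was passed by 0 genes in the quasi-likelihood test of edgeR, where 942 had an unadjusted p-value under 0.05, by 173 of 24616 genes (0.703%) in its likelihood ratio test and by 293 of 16288 (1.8%) in DESeq2. With 2 libraries per diet, the smallest two-sided p-value of an exact permutation test is 0.333. Gene lists had been drawn up for this comparison, but only 2 of their symbols could be paired with an identifier, through the primer list of the study. The nuclear respiratory subunits, mitochondrial expression factors, fibre type genes and muscle-defining genes are therefore not analysed here, and the tissue label could not be checked against its markers. The paired symbols were FGB, a fibrinogen chain and 1 of 9 genes in the liver list, and CDHR5, a cadherin of the epithelial brush border and 1 of 9 genes in the intestinal list. FGB had 1441 and 86 reads on grain but 21 and 0 on grass, and CDHR5 had 4 and 0 on grain but 221 and 23 on grass. The study put both on that list because they differed by diet in these libraries, so their difference was fixed by how they were chosen and says nothing of the other genes of either list. Without overlap, 18.2% of all tested genes were higher on grain and 24.9% on grass. The part of these genes in the results was not tested.

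The 10 genes together were lower in the grass-fed libraries. On grain they took 24.9% of the reads on genes in library 1 and 20.1% in library 2, with Wilson 95% intervals of 24.9% to 25.0% and 20.1% to 20.2%. On grass they took 10.6% in library 1 (interval 10.6% to 10.7%) and 12.4% in library 2 (interval 12.4% to 12.5%). The mean share was 22.5% ± 3.40 (SD, n = 2) on grain and 11.5% ± 1.28 (SD, n = 2) on grass, a gap of 11.0 percentage points that exceeds the difference between the libraries of either diet. The choice of the genes favoured such a gap. Intervals cover counting error only, and counting error was small throughout, since the widest interval of a single gene in a library reached 2.50% of its value on either side. In a bulk sample, fewer cells of a type and less RNA per cell cannot be told apart.

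**Figure D1:**
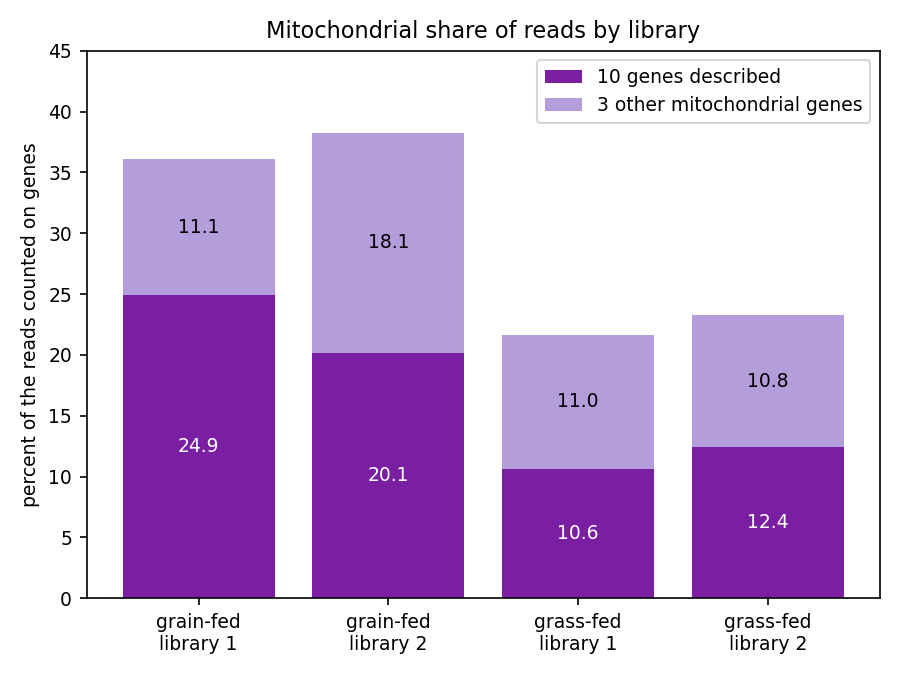
Stacked bars of the percent of reads on genes that fell on the 10 genes described (dark) and on the 3 other mitochondrial genes (light) in each of the 4 libraries. The dark part reaches 24.9% and 20.1% on grain against 10.6% and 12.4% on grass, while the light part is 11.1% and 18.1% against 11.0% and 10.8%.

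The values below are the deposited values set per 1000000 of the mean column total, called units here. Summed over the 10 genes, they were 271919 ± 3824 units (SD, n = 2) on grain and 90258 ± 12517 (SD, n = 2) on grass. For every one of the 10 genes the lower grain-fed library lay above the higher grass-fed library, which the choice of the genes fixed. The same order of libraries, grain above grass without overlap, held for 18.2% of all tested genes. The log2 fold change of grass-fed over grain-fed, on the log2(value + 1) scale, had a median of -1.51 over the 10 genes and a range from -2.32 to -1.15, which as fold changes is 2.22-fold to 4.98-fold lower. A log2 fold change of -1 or lower was found for 11.7% of all tested genes. The standard errors from the fit over all genes lay between 0.33 and 0.38.

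**Figure D2:**
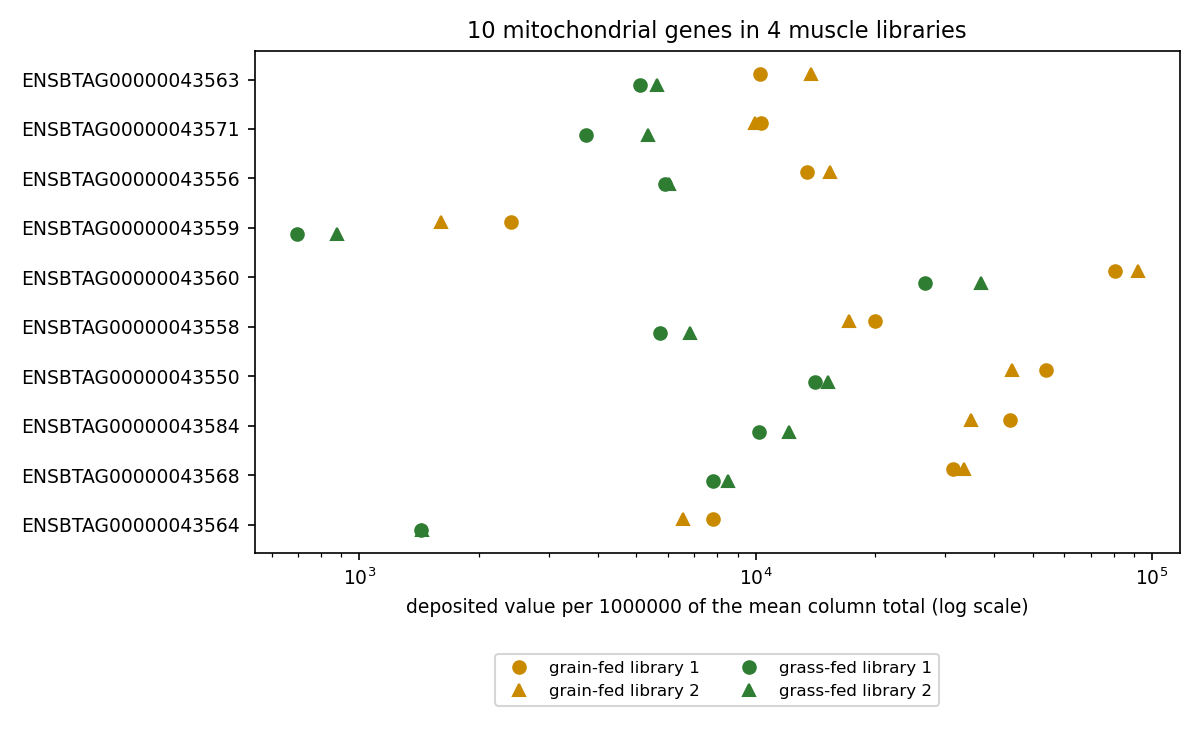
Deposited value of each of the 10 genes per 1000000 of the mean column total, on a log axis, in the 2 grain-fed (ochre) and 2 grass-fed (green) libraries; circles are library 1 and triangles library 2, and genes are ordered by fold change. In every row the 2 ochre points lie to the right of the 2 green points, by a factor of 1.82 to 4.55 between the nearest pair.

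The widest gap was that of ENSBTAG00000043564. On grain it stood at 7787 units in library 1 and 6537 in library 2, and on grass at 1427 and 1436, from 40194, 31936, 12635 and 13430 reads. The grass-fed pair was nearly identical, and even the lower grain-fed value was 4.55 times the higher grass-fed value. Its log2 fold change was -2.32 (standard error 0.33), or 4.98-fold lower. ENSBTAG00000043568 had 31418 and 33544 units on grain and 7791 and 8534 on grass, tight pairs that were 3.98-fold apart (log2 fold change -1.99, standard error 0.34). Expressed as reads, that was 162180 and 163863 against 68975 and 79796, although more reads fell on genes in the grass-fed libraries. These genes had the most negative log2 fold changes of the 10.

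ENSBTAG00000043584 and ENSBTAG00000043550 came next and went together. The former had 43904 and 34947 units on grain and 10185 and 12111 on grass, 3.53-fold lower (log2 fold change -1.82, standard error 0.36). The latter had 54159 and 44287 units on grain and 14153 and 15198 on grass, 3.34-fold lower (log2 fold change -1.74, standard error 0.36). In both, grain-fed library 1 was the highest of the 4 libraries and grass-fed library 1 the lowest. The reads were 226632, 170718, 90167 and 113243 for ENSBTAG00000043584 and 279567, 216344, 125295 and 142104 for ENSBTAG00000043550, in the order grain 1, grain 2, grass 1 and grass 2. ENSBTAG00000043558 kept this order of libraries, at 20054 and 17151 units on grain and 5748 and 6828 on grass, 2.96-fold lower (log2 fold change -1.57, standard error 0.35). It was covered by 103518, 83786, 50888 and 63847 reads.

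ENSBTAG00000043560 took the most reads of the 10 genes in every library, 417307 and 449653 on grain and 236298 and 347015 on grass. Its values were 80843 and 92046 units on grain and 26692 and 37113 on grass, a log2 fold change of -1.45 (standard error 0.38). The grass-fed libraries differed by 0.48 on the log2 scale, more than the grain-fed libraries at 0.19, and the groups still lay apart by a factor of 2.18. At the other end, ENSBTAG00000043559 took the fewest reads of the 10 in every library, 12446 and 7828 on grain and 6151 and 8222 on grass. In raw reads the diets overlapped for this gene. After the scaling it had 2411 and 1602 units on grain against 695 and 879 on grass, a log2 fold change of -1.33 (standard error 0.37), and its grain-fed pair was the widest of the 10, at 0.59 on the log2 scale.

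The remaining genes had the smallest differences. ENSBTAG00000043556 had 13485 and 15394 units on grain and 5903 and 6024 on grass (log2 fold change -1.27, standard error 0.34), from 69610 and 75203 against 52260 and 56329 reads. ENSBTAG00000043571 had 10323 and 9935 units on grain and 3721 and 5354 on grass (log2 fold change -1.18, standard error 0.36). Its grain-fed pair was the closest of the 10, at 0.06 on the log2 scale, and its grass-fed pair the widest, at 0.52. Its reads overlapped between diets, at 53285 and 48534 on grain and 32944 and 50060 on grass, before the scaling to library size. ENSBTAG00000043563 had 10239 and 13770.3 units on grain and 5092 and 5629 on grass, with 52853, 67269, 45076 and 52633 reads, and the smallest fold, 2.22 (log2 fold change -1.15, standard error 0.35). The nearest grain-fed and grass-fed values of this gene were a factor of 1.82 apart.

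The choice of the genes fixed a shift between the diets that all 10 share, and any scaling factor moves all 10 alike, so the shared part of their variation is no trait found in them. A shift common to all 10 accounted for 93.1% of the variation of their log2 values over the 4 libraries, once each gene was centred on its own mean. Centred in this way, their average was 0.83 and 0.75 on grain, and -0.90 and -0.68 on grass, in the order of the library numbers. Grass-fed library 2 lay above grass-fed library 1 for all 10 genes. On grain the order was mixed, with library 1 above library 2 for 6 of them. The mean absolute log2 difference over the 10 genes was 0.26 between the grain-fed libraries and 0.23 between the grass-fed libraries, and 1.43 to 1.74 between libraries of different diets. The smallest distance between diets exceeded the largest within a diet by 1.16 on the deposited scale, by 0.64 when scaled by the total of all genes outside the 13 and by only 0.29 when the columns had equal totals. The genes were chosen for close grain-fed libraries as well as for the gap between diets, so the choice favoured this excess.

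The size of the difference depended on the library totals. The deposited columns sum to 7442724.3 and 9036667.9 on grain and to 5174023.2 and 5383552.3 on grass, because TMM factors of 0.884, 0.728, 1.27 and 1.22 went into the adjustment. With each column rescaled to the same total, all 10 genes were still lower on grass and the groups still did not overlap. Per 1000000 reads on genes, both grain-fed libraries lay above the grass-fed ones for 6.32% of all tested genes. On the rescaled columns the median log2 fold change of the 10 genes was -0.87 and the range -1.68 to -0.51. The median of all tested genes moved with it, from 0.11 on the deposited scale to 0.67, and the percent of genes higher on grass among those at an unadjusted p-value under 0.05 in limma moved from 50.9% to 92.0%. Relative to that median, the 10 genes had a median of -1.62 on the deposited scale and -1.54 on the rescaled one. Scaling by the total of all genes outside the 13 gave -1.18, or -1.59 relative to a median of 0.41 over all genes. ENSBTAG00000043564 stood at -2.43 and -2.35 relative to the median of all genes on the deposited and rescaled columns, and ENSBTAG00000043563 at -1.26 and -1.18.

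The next values are shares of the reads on genes in each library, which is itself a scaling by that total. On this scale ENSBTAG00000043560 went from 7.11% ± 0.32 (SD, n = 2) on grain to 4.07% ± 0.83 (SD, n = 2) on grass. ENSBTAG00000043564 went from 0.60% ± 0.15 to 0.18% ± 0.0043, and ENSBTAG00000043568 from 2.68% ± 0.24 to 1.04% ± 0.04. The share of ENSBTAG00000043559 was 0.17% ± 0.07 against 0.10% ± 0.01, a difference smaller than the SD of its grain-fed pair, and that of ENSBTAG00000043571 was 0.84% ± 0.14 against 0.58% ± 0.13. The libraries of these genes did not overlap between diets, but the gap was narrow beside the spread within a diet. The order of genes by reads within a library shifted too. Among all genes, ENSBTAG00000043564 ranked 25 and 35 on grain but 62 and 70 on grass, and ENSBTAG00000043568 ranked 6 and 7 against 20 and 16. ENSBTAG00000043560 kept a place among the first 3, at ranks 1 and 2 on grain and 3 and 2 on grass.

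The make-up of the 10-gene signal differed less than its size. When each gene was set as a percent of the summed reads of the 10 genes in its own library, which removes the library total, 3 genes had a higher share in both grain-fed libraries, 3 had a higher share in both grass-fed libraries and 4 overlapped. By comparison, on the deposited scale 18.2% of all tested genes were higher on grain without overlap and 24.9% were higher on grass, and no result about the genes is read from these counts. The mean absolute log2 difference of these shares was 0.26 between the grain-fed libraries and 0.16 between the grass-fed libraries, and 0.27 to 0.40 between libraries of different diets, so the distance between diets was close to that within grain at its lower end.

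**Figure D3:**
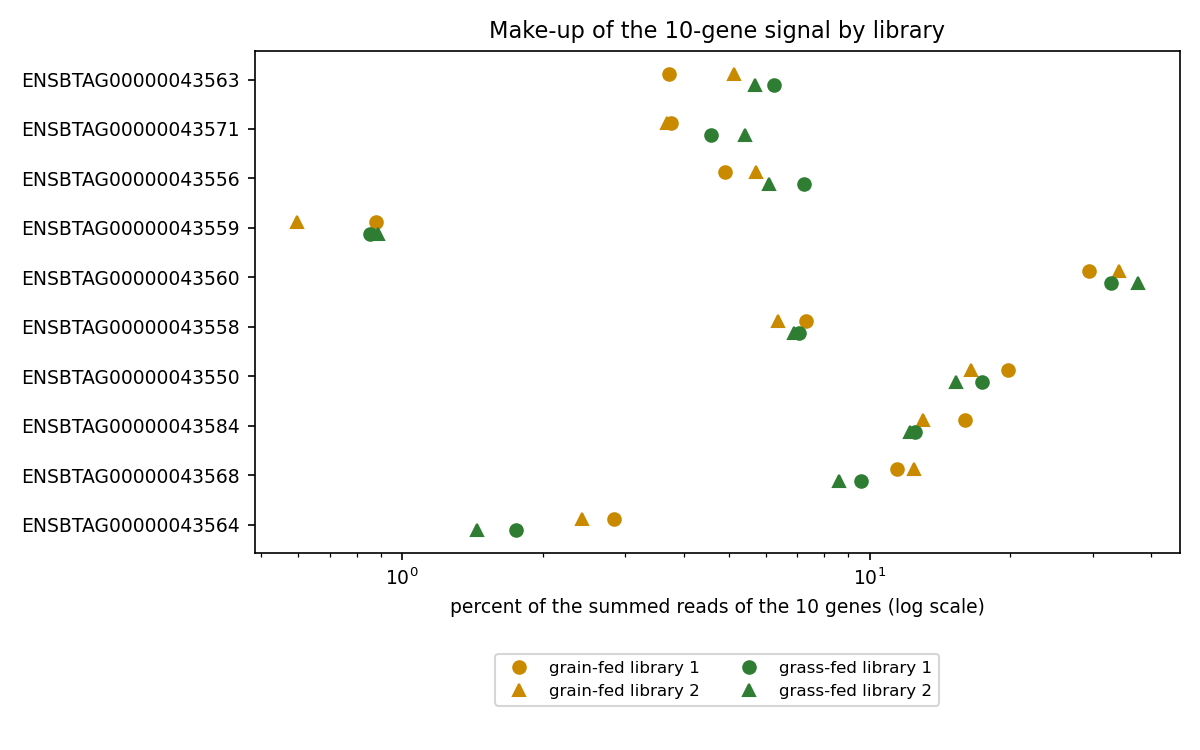
Percent of the summed reads of the 10 genes that fell on each gene, on a log axis, in the 2 grain-fed (ochre) and 2 grass-fed (green) libraries; circles are library 1 and triangles library 2. ENSBTAG00000043564 and ENSBTAG00000043568 lie to the left on grass, at 1.75% and 1.45% against 2.84% and 2.43% for the former, and ENSBTAG00000043563 lies to the right, at 6.25% and 5.68% against 3.73% and 5.11%.

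The genes with a higher share on grain were ENSBTAG00000043564, ENSBTAG00000043568 and ENSBTAG00000043584. ENSBTAG00000043564 made up 2.84% and 2.43% of the 10-gene reads on grain and 1.75% and 1.45% on grass, a difference of log2 shares of -0.72. ENSBTAG00000043568 made up 11.4% and 12.5% on grain and 9.57% and 8.61% on grass, a difference of -0.40. ENSBTAG00000043584 made up 16.0% and 12.98% on grain and 12.5% and 12.2% on grass, with the nearest values close together. The genes with a higher share on grass were those with the smallest fold changes. The difference of log2 shares is the log2 fold change shifted by nearly the same amount for all 10 genes, so this agreement follows from the arithmetic. ENSBTAG00000043563 made up 3.73% and 5.11% on grain and 6.25% and 5.68% on grass, ENSBTAG00000043571 made up 3.76% and 3.69% against 4.57% and 5.40%, and ENSBTAG00000043556 made up 4.91% and 5.72% against 7.25% and 6.08%. ENSBTAG00000043560 held between 29.4% and 37.4% of the 10-gene reads, with the diets overlapping. The other overlapping genes were ENSBTAG00000043550, ENSBTAG00000043558 and ENSBTAG00000043559.

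Ratios between the 10 genes within a library were stable for some pairs and not for others. Of the 45 pairs, 12 had a log2 ratio that ranged by under 0.5 over the 4 libraries and 35 by under 1. The steadiest pair, picked here after the values were seen, was ENSBTAG00000043550 with ENSBTAG00000043584, with 1.23 and 1.27 reads of the former for each read of the latter on grain and 1.39 and 1.25 on grass. The least steady pair was ENSBTAG00000043563 with ENSBTAG00000043564, at 1.31 and 2.11 on grain and 3.57 and 3.92 on grass.

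As a share of the reads of all 13 mitochondrial genes, the 10 genes made up 69.1% in library 1 and 52.6% in library 2 on grain, against 49.1% and 53.5% on grass. Grain-fed library 2 lay between the grass-fed libraries, so the diets overlapped on this measure. The difference of 9.57 percentage points between the diets rested on grain-fed library 1: it was 1.32 without that library and 17.8 without grain-fed library 2. Under this denominator 4 genes had a higher share in both grain-fed libraries, 1 had a higher share in both grass-fed libraries and 5 overlapped, from which, beside the same 18.2% and 24.9%, no result is read either.

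The genes just outside the choice show where it was drawn. ENSBTAG00000043577 had 63253 and 32382 units on grain and 13054 and 16467 on grass, without overlap, but its grain-fed libraries differed by 0.97 on the log2 scale, against at most 0.59 among the 10 genes. ENSBTAG00000043561 had 58598 and 207486 units on grain and 70594 and 68143 on grass, and ENSBTAG00000043546 had 834 and 2535 on grain and 784 and 1472 on grass. In both of these, grain-fed library 1 lay below at least 1 grass-fed library. ENSBTAG00000043561 alone took 5.32% of the reads on genes in library 1 and 15.5% in library 2 on grain. The grain-fed libraries thus had similar totals for the 13 genes, 36.1% and 38.3% of these reads, with a different split between the genes.

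A lower value on grass was also common among other genes with many reads. Apart from the 13 mitochondrial genes, 75 genes had a mean of at least 1000 units. For 34 of them, or 45.3%, the diets did not overlap and grain was higher, and their median log2 fold change was -0.39. In the classes of 1 to 10, 10 to 100 and 100 to 1000 units the median was 0.38, -0.12 and -0.34, so the median declined from the lowest to the highest class. With columns rescaled to the same total these medians were 0.84, 0.48, 0.30 and, for the 75 genes, 0.25. Per 1000000 reads on genes, 13 of the 75 genes, or 17.3%, were higher on grain without overlap, against all 10 of the mitochondrial genes described. Of the 75, 12 had a log2 fold change on the deposited scale at or below that of ENSBTAG00000043563, the smallest difference of the 10, and 8 at or below the median of the 10. None of the 75 reached the -2.32 of ENSBTAG00000043564. These counts are descriptions, since the 10 genes were chosen for a low value on grass.

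**Figure D4:**
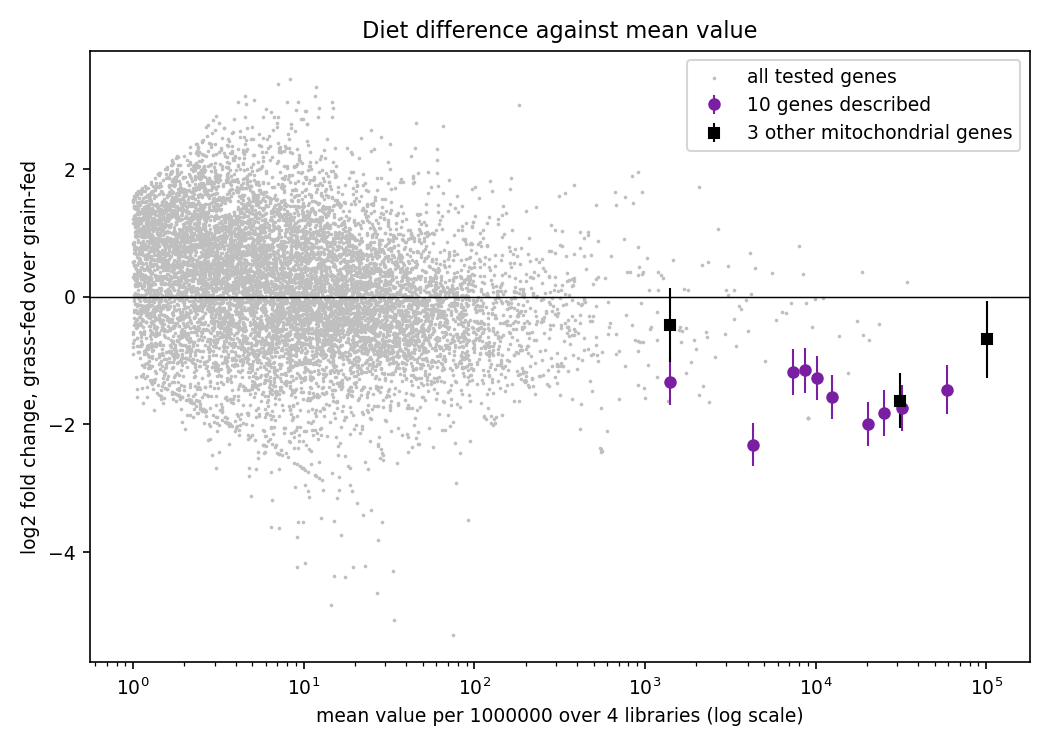
Log2 fold change of grass-fed over grain-fed against the mean value per 1000000 (log axis) for 10461 tested genes (grey), the 10 genes described (purple) and the 3 other mitochondrial genes (black squares); bars are the standard error from the fit. The purple points lie between -2.32 and -1.15 at the right, where the grey points also have a median below 0, at -0.39 above a mean of 1000.

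The genes outside the mitochondrial set whose pattern over the 4 libraries lay closest to that of the 10 were sought among 633 genes with a mean of at least 100 units, by the Euclidean distance of centred log2 values to the median pattern of the 10. The closest was ENSBTAG00000032531, at a distance of 0.20, with 3110 units in grain-fed library 1 and 3072 in library 2, and 901 and 1248 units in the grass-fed libraries. The second was ENSBTAG00000037500, at 0.22, with 165 and 168 units on grain and 43.7 and 61.3 on grass. Neither has a name in the sources used here. The next 3 genes lay at 0.22 to 0.25, and the 10 mitochondrial genes themselves lay at 0.08 to 0.74 from their own median pattern, so these 5 genes followed the common pattern more closely than some of the 10 did. Picking the closest 5 of 633 candidates largely fixed this outcome.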

How the data were processed

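The deposited values are a signal per Ensembl gene. The authors aligned muscle RNA-Seq reads with Bowtie to the UMD3.1 (BosTau6) cattle genome, used GenomicRanges and edgeR, and deposited pseudo-counts, in which edgeR adjusts counts to a common library size with TMM factors. The sources used here give no versions. The columns name the diet and not the steer, so each library served as a replicate of its diet (n = 2), and p-values measure the spread between these libraries. The adjustment was inverted with a dispersion of 0.605, and all genes with reads, 13198 on grain and 15519 on grass, gave whole reads within a relative tolerance of 1e-05. Library depths were 5683894 and 6530977 reads on genes on grain and 6776619 and 7447453 on grass, and the Wilson 95% intervals cover counting error only.

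Deposited values per 1000000 of the mean column total were fitted as log2(value + 1) with limma 3.58.1 with a trend (R 4.3.3), over all genes with a mean of at least 1, with Benjamini-Hochberg adjustment at 0.1, the threshold of the study. The scripts were tested on simulated data with a smaller dispersion than the 0.605 of the adjustment. For limma the simulated fold changes were also larger than those of the 10 genes. These tests check the code and do not measure how well it detects changes in these data. Alternatives were other pseudocounts, filters and scalings, DESeq2 1.42.0 and edgeR 4.0.16 on recovered reads, and each library left out in turn. The 10 genes and all lists were chosen with earlier results of these data known. Named are the 10 genes, the 3 other mitochondrial genes, taken from the heat map labels of the study, and 2 of the 5 genes most like them in pattern, since genes without names are limited to 2 identifiers. Gene lists of nuclear genes could not be paired with identifiers and are not analysed here, nor are sequences.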

Additional observations from a re-analysis of the deposited data

How the results depend on the processing

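All 160 fold changes of the 10 genes under the alternatives were below 0, from -2.44 to -0.51 on the log2 scale. The choice of the genes fixed this sign wherever a library was left out. Other filters and a fit without a trend leave the fold change as it was, so the count is no test. The median of the 10 genes, -1.51, was -0.87 once columns were rescaled to equal totals, -0.87 on recovered reads per 1000000, -1.18 with the total of the other genes, and between -1.69 and -1.35 with a library left out. The smallest distance between diets minus the largest within a diet, 1.16 as a mean absolute log2 difference, was 0.29, 0.64 and 0.29 under the same-total, other-genes and recovered-read scalings and 1.16 to 1.39 with a library left out. The choice of the genes favoured a positive value here. In place of 0 genes, 122 passed without a filter on low values, 173 in the likelihood ratio test and 293 in DESeq2. In limma, 918 genes stood under an unadjusted p-value of 0.05, and leaving out a grain-fed library (1 or 2) gave 2259 or 2570 such genes, whereas leaving out a grass-fed one (1 or 2) gave 177 or 673. Such a fit takes its spread from the other diet and assumes that the lone library varies alike, so these counts do not compare the libraries. The log2 difference in the share of the 13-gene signal, grass minus grain, turned direction for 4 genes, from -0.09 to 0.14 for ENSBTAG00000043560 and from -0.20 to 0.032 for ENSBTAG00000043558 when the share was taken of the 10 genes only. With a library left out it ranged from -0.25 to 0.067 for ENSBTAG00000043560, -0.50 to 0.093 for ENSBTAG00000043558, -0.029 to 0.39 for ENSBTAG00000043571 and -0.44 to 0.51 for ENSBTAG00000043559. The cause was not tested. The difference of 9.57 percentage points in the share of the 13-gene reads ranged from 1.32 without grain-fed library 1 to 17.8 without grain-fed library 2. Tests of nuclear gene lists were not run. No paired analysis was possible because the labels give the grain-fed and grass-fed steers no shared replicate numbers.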
